A study of Mus musculus with 48 samples.

Results

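Ubiquitin-conjugating enzymes and cullins were followed across the day in tibialis anterior muscle, a fast muscle of the lower leg, from mice with and without pancreatic tumors. The group was defined by gene symbol and by the annotation of the deposited FPKM table (fragment counts scaled by exon length and library size): all protein-coding genes whose symbol begins with Ube2, or with Cul and a digit. It held 45 genes, 37 Ube2 genes and 8 cullins, of the 56748 genes in that table, 21970 of which were protein-coding. A further 6 genes with matching symbols were not annotated as protein-coding and were left out.

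Poly(A)-selected RNA was sequenced from 48 male mice aged 39 to 55 weeks, kept in constant darkness from circadian time 0 (CT0), the former lights-on. WT mice and mice in which Cre under the ACTA1 promoter removes floxed *Foxp1* from skeletal muscle fibers (FoxP1SkmKO) received KPC cells, a murine pancreatic cancer line, in the pancreas (KPC), or the carrier fluid alone (control). Muscles were taken every 4 h from CT18 to CT38, at 6 times in all, from 2 mice for each of the 24 combinations and 12 for each genotype and condition. According to the labels WT means C57BL/6J, but according to the series design it means floxed and free of Cre, so that an effect of strain and of Cre cannot be told apart from that of the deletion.

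Ubiquitin reaches its targets through a relay. An activating enzyme (E1) charges a conjugating enzyme (E2, mostly the Ube2 genes), which passes ubiquitin on with a ligase (E3) that selects the protein. Cullins are the scaffolds of the largest ligase family. They hold a RING protein that docks the charged E2 at one end and an adaptor with a substrate receptor at the other, and they are switched on when the ubiquitin-like protein NEDD8 is attached to them. In muscle this system feeds the proteasome, and its muscle ligases atrogin-1 (*Fbxo32*), a receptor of cullin 1, and MuRF1 (*Trim63*) are the classic markers of wasting.

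Libraries held 14480867 to 20787784 counts on genes. The targeted gene, *Foxp1*, was read at 0.630 ± 0.140 FPKM in WT control mice and 0.578 ± 0.068 in FoxP1SkmKO control mice (SD, n = 12), a log2 difference of -0.11 (SE 0.07) with an adjusted p of 0.459 by edgeR's quasi-likelihood test. In KPC mice it stood at 0.629 ± 0.102 in WT and 0.544 ± 0.074 in FoxP1SkmKO (log2 difference -0.20, SE 0.07, adjusted p = 0.245). Unadjusted, the edgeR p for this gene was 0.135 in control mice and 0.00764 in KPC mice. The counts of the whole gene were thus lower in FoxP1SkmKO mice, but did not separate the genotypes after adjustment over all genes. They include cells other than fibers and exons that may lie outside the floxed part. Summed FPKM of 7 muscle fiber markers ran from 41952 to 58027 over the libraries, that of 5 macrophage markers from 7.79 to 42.9, of 3 neutrophil markers from 0 to 14.7, of 3 endothelial markers from 34.0 to 59.4, of 3 fibroblast markers from 11.5 to 53.7, of 3 adipocyte markers from 0.122 to 8.16, of 5 erythroid markers from 81.7 to 330.2, and of 5 markers of dividing cells from 0.063 to 0.660. In mice with tumors, averaged over both genotypes, both neutrophil markers tested were higher, *S100a9* by 2.18 on the log2 scale, all 3 fibroblast markers were lower, *Col1a1* with -0.80, *Dcn* with -0.49, and *Pdgfra* with -0.43, and 2 of 3 endothelial markers were lower, whereas no fiber, macrophage, adipocyte, erythroid, or dividing-cell marker was called. Fewer cells of a type and less RNA per cell cannot be told apart in whole muscle, and the part of either in the values below was not tested. The labels name no batch. The root mean square log2 distance of a library to the median library of its genotype and condition was 0.327 to 0.556 with a median of 0.361, highest for FoxP1SkmKO KPC CT18 replicate 2, and 0.504 for WT control CT26 replicate 1.

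The 45 genes together took 0.248% to 0.281% of the counts of a library. Median FPKM over the 48 mice was at least 10 in 17 of them, between 1 and 10 in 18, and under 1 in 10. The highest was *Ube2b* (RAD6B, partner of the UBR ligases that read destabilizing N-terminal residues), at chromosome 11 51876324 to 51891589 on the minus strand of mm39, with a median of 162 FPKM and a range of 135 to 189. No library of any other member reached the lowest *Ube2b* value, and its median was 2.92 times that of *Cul3*, the scaffold for BTB-domain receptors, at 55.6 (47.4 to 66.9). The next in order were *Ube2r2*, an E2 that builds chains on cullin substrates, at 44.8 (35.9 to 52.6), the broadly acting *Ube2d1* at 32.1 (26.9 to 40.3), *Ube2m*, which carries NEDD8 to cullins, at 31.7 (28.0 to 45.4), and *Ube2g2*, an E2 of endoplasmic reticulum quality control, at 25.5 (19.6 to 31.8). From *Cul3* downward, the ranges of neighbors in this order overlapped.

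Cullins ranged from 0.976 FPKM for *Cul7* to *Cul3*, with *Cul1* at 20.9, *Cul4a* at 16.8, *Cul2* at 13.4, *Cul5* at 11.4, *Cul9* at 3.20, and *Cul4b* at 2.12. The 41 genes that passed the filter on low counts included all 8 cullins and 33 Ube2 genes. The lowest of these were *Ube2t*, the E2 of DNA crosslink repair, at 0.471, *Ube2ql1* at 0.413, and *Ube2v1*, a variant without the catalytic cysteine that partners *Ube2n*, at 0.173 FPKM. The other 4 genes were barely read: *Ube2u* had 3 reads in all 48 libraries, *Ube2d2b* 1 read, and *Ube2dnl1* and *Ube2dnl2* none. FPKM depends on the annotated length. *Ube2d3*, for which 24499 exon bases are annotated, drew 217409 counts over all libraries and 10.8 FPKM, whereas *Ube2b* with 2126 bases drew 279539 counts.

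**Figure D1:**
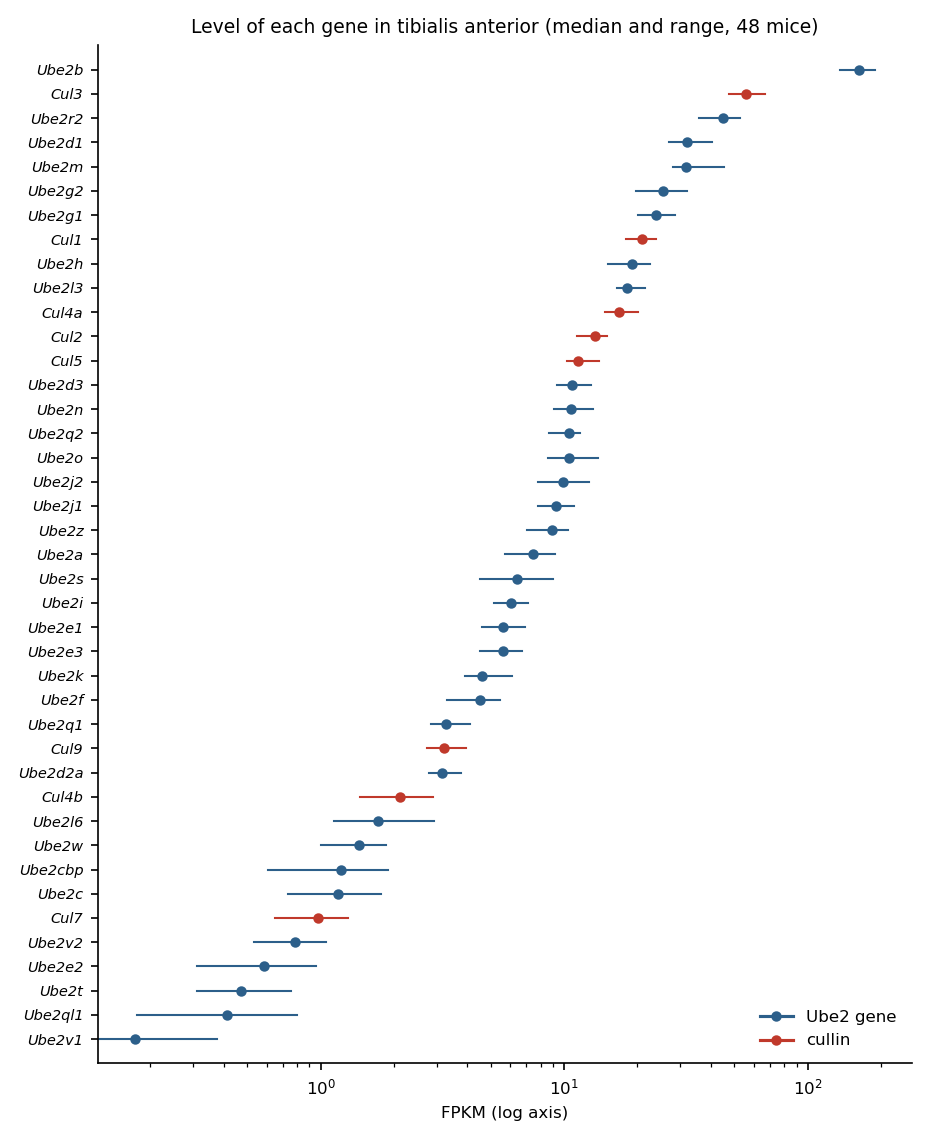
Median FPKM over the 48 mice (points, log axis) with the lowest and highest mouse (lines) for the 41 members that passed the count filter, Ube2 genes in blue and cullins in red. *Ube2b* stands apart at 162 FPKM, and the levels fall to 0.173 for *Ube2v1*, whose lowest library is at 0 and lies off the log axis.

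Some of these genes overlap a neighbor in the annotation. *Ube2c*, which charges the mitotic ligase APC/C, overlaps the fast-muscle gene *Tnnc2* by 1662 bases of gene span on the opposite strand, and *Tnnc2*, one of the abundant fast-fiber transcripts as a rule, was listed at only 6 to 23 counts. *Mki67* and *Top2a*, which mark dividing cells, reached at most 0.188 and 0.168 FPKM, against 1.18 for *Ube2c*. *Ube2s* and *Rpl28* share 521 bases. The methods name HTSeq as the counting tool. How it assigned reads from shared bases and from either strand is not given in the sources used here. The values of *Ube2c*, *Ube2s*, and *Ube2v1*, whose span lies in the longer gene *Gm20431*, are therefore uncertain. The same holds for *Ube2a*, which shares 50375 bases of span with *Steep1* on the opposite strand, *Ube2g2*, which shares 19269 with *Gm49325* on its own strand, *Ube2l3* (8689 with *Ydjc*), and *Ube2e1* (1282 with *Nkiras1*). These neighbors are protein-coding. Other members overlap genes that are not, among them *Ube2d2a* (9653 bases with *Gm50371*), *Ube2k* (3725 with *Gm42726*), *Cul5* (2905 with *Gm16124*), and *Cul3* (1818 with *Gm37262*).

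The first question was which members follow the time of day. A 24 h sinusoid shared by the 48 mice, on top of the mean of each genotype and condition, was called at an adjusted p under 0.05 for 22 of the 41 members tested (53.7%), 16 Ube2 genes and 6 of the 8 cullins, against 34.9% of all 15637 genes. The swings were small: the median fitted peak-to-trough ratio was 1.14 for these 22 genes and 1.25 for all genes called.

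*Ube2d1* had the lowest p. It averaged 29.3 ± 1.73 FPKM at CT18 and 29.6 ± 1.41 at CT22, rose to 34.9 ± 3.5 at CT26 and 37.2 ± 2.70 at CT30, and was back at 34.4 ± 1.44 and 30.0 ± 1.55 at CT34 and CT38 (SD, n = 8 mice at each time). Each of the 8 mice at CT30 lay above each of the 8 at CT18 and CT22. The fitted peak was CT30.0, in the middle of the former rest phase, and the ratio was 1.30 (adjusted p = 2.04e-10, edgeR). *Ube2h*, E2 of the CTLH ligase, peaked near it at CT27.4, from 17.7 ± 1.14 FPKM at CT18 to 20.8 ± 1.18 at CT26 (ratio 1.23, adjusted p = 3.25e-07).

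*Ube2g1*, which builds lysine-48 chains and extends them on cullin substrates, peaked later. It stood at 22.3 ± 1.05 FPKM at CT26 and 26.8 ± 1.0 at CT34, without overlap between the mice of these times (20.1 to 23.4 and 25.5 to 28.3), for a fitted peak at CT34.7 and a ratio of 1.23 (adjusted p = 8.99e-10). *Ube2d3*, a close relative of *Ube2d1*, went from 10.1 ± 0.390 at CT22 to 11.6 ± 0.769 at CT34, with a peak at CT33.7, a ratio of 1.17 and an adjusted p of 1.67e-06. *Ube2j1*, anchored in the endoplasmic reticulum membrane, peaked last of the 22, at CT38.8, and moved between 8.77 ± 0.601 FPKM at CT26 and 10.03 ± 0.593 at CT38 (ratio 1.15, adjusted p = 0.00064). *Ube2n*, the lysine-63 chain builder, rose from 10.02 ± 0.588 at CT18 to 11.4 ± 0.633 at CT34, and its mice overlapped (ratio 1.13, peak CT32.2, adjusted p = 0.00763).

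Among the scaffolds, *Cul1*, around which SCF ligases with F-box receptors are built, had its lowest mean at CT22, 19.6 ± 1.02 FPKM, and its highest at CT34, 22.3 ± 1.02. No mouse of CT22 (18.0 to 20.7) reached the lowest mouse of CT34 (20.9), and the fit gave a peak at CT35.5, a ratio of 1.14 and an adjusted p of 5.43e-05. *Cul3* moved between 52.4 ± 2.84 at CT22 and 60.4 ± 4.38 at CT34 (peak CT34.9, ratio 1.12, adjusted p = 0.00489). *Cul4b*, *Cul5*, and *Cul2* peaked at CT33.7, CT33.9, and CT36.6, with adjusted p-values of at most 0.0275. *Cul7* differed: it was highest at CT26, 1.09 ± 0.090 FPKM, and lowest at CT34, 0.864 ± 0.091, a peak at CT25.3 with a ratio of 1.26 (adjusted p = 0.00275). *Cul4a* and *Cul9* were not called.

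The widest ratios belonged to genes with few reads. *Ube2ql1* fell from 0.562 ± 0.148 FPKM at CT26 to 0.301 ± 0.103 at CT38 (ratio 1.70, peak CT23.1, adjusted p = 0.00337), *Ube2t* rose from 0.389 ± 0.048 at CT26 to 0.618 ± 0.106 at CT38 (ratio 1.54, peak CT35.8, adjusted p = 0.000125), and *Ube2cbp*, whose product binds E2 enzymes and acts as a ligase, went from 1.02 ± 0.174 at CT38 to 1.43 ± 0.174 at CT26 (ratio 1.45, peak CT26.8, adjusted p = 0.00164). Their mice overlapped across times: *Ube2t* spanned 0.317 to 0.482 FPKM at CT26 and 0.463 to 0.756 at CT38. *Ube2b*, the most abundant member, moved by a ratio of 1.11, from 153 ± 11.8 FPKM at CT18 to 169 ± 8.61 at CT34 (peak CT34.3, adjusted p = 0.0103).

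**Figure D2:**
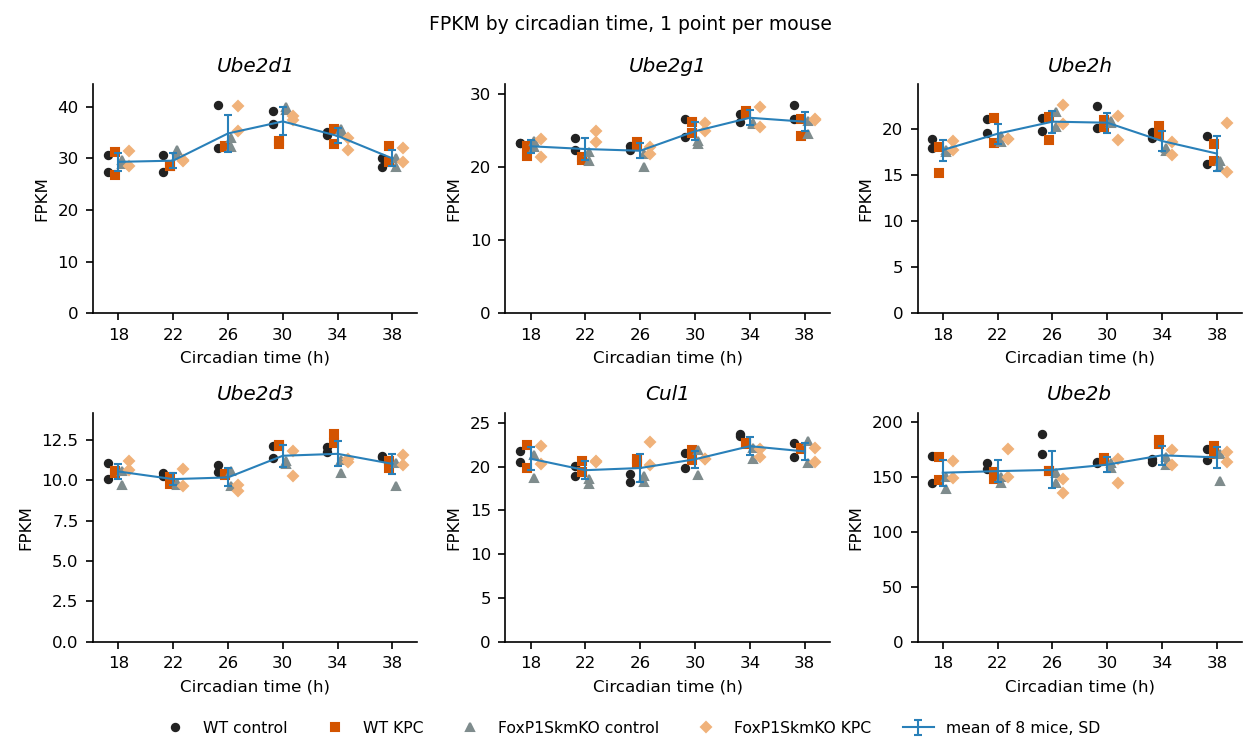
FPKM of each of the 48 mice (points) by circadian time for 5 rhythmic members with low p and for *Ube2b*, by genotype and condition, with the mean of the 8 mice at each time and its SD. *Ube2d1* is highest at CT30, *Ube2h* at CT26, and *Ube2g1* and *Cul1* at CT34.

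Fitted peaks of the 22 genes were counted in 4 h bins from CT18. The bins held 1, 2, 4, 7, 7, and 1 of them, so that 14 (63.6%) peaked between CT30 and CT38, the hours before and after the former lights-off, whereas 2186 of the 5455 rhythmic genes did (40.1%). This split was chosen after the peaks were seen and was not tested. The early group, with peaks from CT21.1 to CT27.9, was made up of *Ube2o*, *Ube2ql1*, *Cul7*, *Ube2cbp*, *Ube2d2a*, *Ube2h*, and *Ube2r2*.

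**Figure D3:**
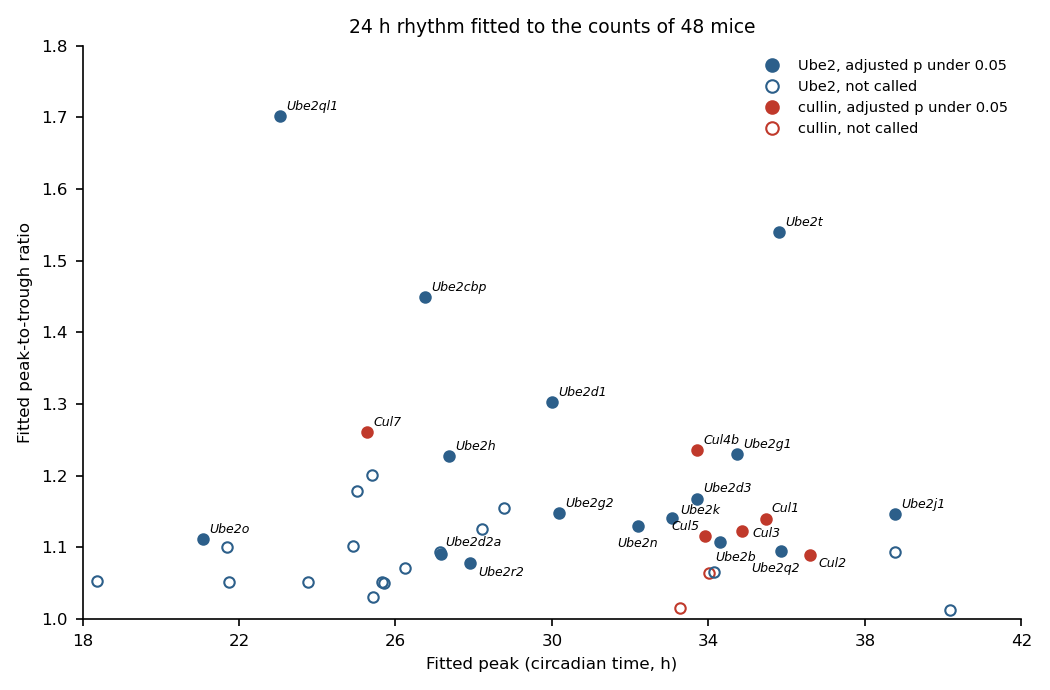
Fitted peak time (x axis, circadian hours) against the fitted peak-to-trough ratio (y axis) for members, filled where the adjusted p was under 0.05, Ube2 genes in blue and cullins in red. Most filled points lie between CT30 and CT38 and below a ratio of 1.3, and *Ube2ql1*, *Ube2t*, and *Ube2cbp* lie above it together with *Ube2d1*.

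Clock factors and the forkhead proteins recognize short DNA elements, and the members' start sites were searched for them in windows from 250 bases before to 50 after the RefSeq start (GRCm38.p6). Windows were matched for 37 of the 45 genes, 50 windows in all. The E-box CACGTG, read by CLOCK and BMAL1, was in 5 of the 50 windows (10%), those of *Cul1*, *Cul5*, *Ube2b*, *Ube2cbp*, and *Ube2q1*, and in 7.15% of all 32851 windows. Of these 5 genes 4 were called rhythmic, all but *Ube2q1*, as were 18 of the 37 matched genes. The *Ube2b* window held 3 copies, which 29 of all windows (0.0883%) matched or exceeded. Stretches of 30 bases around the E-box (capitals) of the rhythmic members are shown 5′ to 3′ on the gene's strand, because the 4 genes were called rhythmic and hold these letters near their start.
Ube2b: ggcgctggcggtCACGTGacttgacgtcac
Ube2b: aggctaggccatCACGTGacctgctctgat
Cul1: gagacacacatcCACGTGggtatgtgggca
Cul5: cgcccgccgcgtCACGTGacgccgccacgg
Ube2cbp: ctgctacggccgCACGTGctcccaccctgt

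On GRCm39 the stretches lie at chr11:51891606-51891635 and chr11:51891703-51891732 on the minus strand for *Ube2b*, chr6:47430493-47430522 on the plus strand for *Cul1*, and chr9:53578771-53578800 and chr9:86346922-86346951 on the minus strand for *Cul5* and *Ube2cbp*. Counted from the RefSeq start, negative upstream, their E-boxes begin at -10 and -107 in *Ube2b*, -161 in *Cul1*, 19 in *Cul5*, and 30 in *Ube2cbp*, and the third *Ube2b* copy at -76. GENCODE annotates the first *Ube2b* stretch and those of *Cul1*, *Cul5*, and *Ube2cbp* as overlapping a UTR exon of some transcripts, and the second *Ube2b* stretch as gene body of longer transcripts. Of the other elements, both strands searched, the D-box core TTATGTAA was in no member window (0.938% of all), the ROR and REV-ERB half-site AGGTCA in 24% (16.3% of all), with 3 of its 11 genes called rhythmic, the cAMP element TGACGTCA in 4.0%, those of *Ube2b* and *Ube2h* (1.79% of all), and the forkhead core GTAAACA in 4.0%, those of *Cul7* and *Ube2h* (3.65% of all). A match describes letters in the window only.

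Rhythms were also fitted within each genotype and condition on FPKM, with an unadjusted p under 0.01 as the threshold. In WT control mice 7 of 42 members passed (4.92% of all genes did), in WT KPC mice 6 of 42 (4.22%), in FoxP1SkmKO control mice 6 of 41 (4.07%), and in FoxP1SkmKO KPC mice 2 of 42 (2.63%). These shares are over 27209 to 28711 genes with any varying FPKM, however low. Of the 1339, 1155, 1169, and 747 genes that passed, 1053, 885, 920, and 564 had a mean of at least 1 FPKM. The share among genes at the members' levels is not given here. In total 14 members passed in at least 1 of the 4, and *Ube2d1* alone passed in all of them, with amplitudes of 5.15 ± 1.06, 2.89 ± 0.648, 4.84 ± 0.728, and 4.45 ± 0.926 FPKM (SE) in the same order. *Ube2g1* passed in 3, with p-values of 0.00171, 3.99e-05, and 4.54e-05, and had a p of 0.022 in FoxP1SkmKO KPC mice. *Ube2d3* passed in both WT groups and *Ube2j1* in both FoxP1SkmKO groups, and 10 members passed in 1 group. With the p-values adjusted over all genes, 0, 2, 2, and 0 members were left in the order above, *Ube2g1* and *Ube2d3* in WT KPC mice and *Ube2g1* and *Ube2h* in FoxP1SkmKO control mice, and of all genes 150, 130, 119, and 33.

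*Ube2b* and *Cul2* (the scaffold of the VHL ligase) were among the genes that passed in WT KPC mice and not in WT controls. *Ube2b* in WT KPC mice read 168 and 147 FPKM at CT18, 154 and 148 at CT22, 155 and 155 at CT26, 166 and 164 at CT30, 183 and 179 at CT34, and 178 and 170 at CT38, and both mice of CT34 lay above all others. The fitted amplitude was 14.98 ± 2.46 FPKM (SE) around a basal level of 163.9, with a peak at CT34.8 (p = 0.000636, adjusted p = 0.0802, F test of the sinusoid, n = 12). In WT control mice the values were 144 and 169, 157 and 162, 189 and 171, 162 and 163, 166 and 163, and 165 and 175 FPKM at the same times. There the highest pair was that of CT26, and the fit gave 4.87 ± 4.52 FPKM around 165.5 (p = 0.579, n = 12).

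*Cul2* had an amplitude of 0.905 ± 0.171 FPKM with a peak at CT35.5 in WT KPC mice (p = 0.00174) and of 0.589 ± 0.291 with a peak at CT35.7 in WT controls (p = 0.186, n = 12 each). The test of the difference itself was not passed by either gene: for *Ube2b* p was 0.0232 (adjusted p = 0.752) and for *Cul2* 0.646 (adjusted p = 0.873). *Ube2c* had an amplitude of 28.1% of its basal 1.31 FPKM in WT KPC mice, peaking at CT22.6 (p = 0.000579, n = 12), and a p for the difference of 0.0315 (adjusted p = 0.752), with the overlap with *Tnnc2* given above. In WT controls *Cul1*, *Cul5*, *Ube2o*, a large enzyme that is E2 and E3 in one, and *Ube2z*, which also carries FAT10, passed with p-values of 0.0015, 0.00572, 0.00587, and 0.0061, and not in WT KPC mice (0.0139, 0.15, 0.0876, and 0.291). With each of the 12 WT control libraries left out in turn, *Cul1* passed in 12 fits, *Ube2z* in 6, *Ube2o* in 4, and *Cul5* in 3. A change of rhythm with tumors was called for no gene in WT or in FoxP1SkmKO mice (0 and 0 percent of genes, F test with adjusted p under 0.05). At an unadjusted p under 0.05 the difference was passed by 4 members and 1501 genes in WT, and by 3 members and 1590 genes in FoxP1SkmKO mice.

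The next comparison asked whether tumors changed the level of members, averaged over the 6 circadian times. Tumors moved these genes little. The median log2 difference of the 41 members was -0.02 in WT and 0.02 in FoxP1SkmKO mice, with 0.002 and 0.005 over all genes, and 40 of the 41 lay within 0.2 of zero when both genotypes were averaged. By edgeR, no member was called in WT mice (1.78% of all genes were) or in FoxP1SkmKO mice (0.428%). At an unadjusted p under 0.05 there were 2 and 4 of the 41 members. Of all 15637 genes, 2371 passed that threshold in WT and 1935 in FoxP1SkmKO mice. DESeq2 called 0 members in both as well.

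Averaged over both genotypes, 1 of 41 members was called, against 5.31% of all genes. This was *Cul9*, a large cullin with a RING-between-RING ligase domain of its own, at chromosome 17 46811498 to 46857314. In WT mice it stood at 2.74 to 3.39 FPKM (median 3.07) without and 2.87 to 3.62 (median 3.26) with tumors, and in FoxP1SkmKO mice at 2.82 to 3.58 (median 3.17) without and 2.92 to 3.96 (median 3.43) with them. The groups overlapped, and the mean of KPC mice was above that of controls at 5 of 6 times in WT and at 6 of 6 in FoxP1SkmKO mice. The log2 difference was 0.11 (SE 0.03, adjusted p = 0.0238), with 0.09 (SE 0.04, adjusted p = 0.28) in WT and 0.13 (SE 0.04, adjusted p = 0.16) in FoxP1SkmKO mice alone. The call was lost without CT26 (0.09, adjusted p = 0.111), without FoxP1SkmKO control CT22 replicate 2 (adjusted p = 0.0517), and without FoxP1SkmKO KPC CT38 replicate 1 (adjusted p = 0.0551).

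*Ube2f*, the second NEDD8 E2, which serves *Cul5*, came next, at 4.69 ± 0.291 and 4.31 ± 0.470 FPKM in WT control and KPC mice and 4.65 ± 0.224 and 4.34 ± 0.442 in FoxP1SkmKO mice (log2 difference -0.11, SE 0.04, adjusted p = 0.0995). *Ube2b* averaged 165.5 ± 10.6 and 163.9 ± 12.3 FPKM in WT control and KPC mice, a log2 difference of -0.02 (SE 0.04, adjusted p = 0.885), and *Cul2* 13.3 ± 0.778 and 13.3 ± 0.768 (0.01, SE 0.04, adjusted p = 0.974). Averaged over circadian times, a difference in tumor effect between genotypes was called for no member and no other gene by edgeR (0 percent called). In that test 3 members and 1020 genes had an unadjusted p under 0.05. The member with the lowest p there was *Ube2g1*, with a difference of -0.12 (SE 0.04, adjusted p = 0.764).

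**Figure D4:**
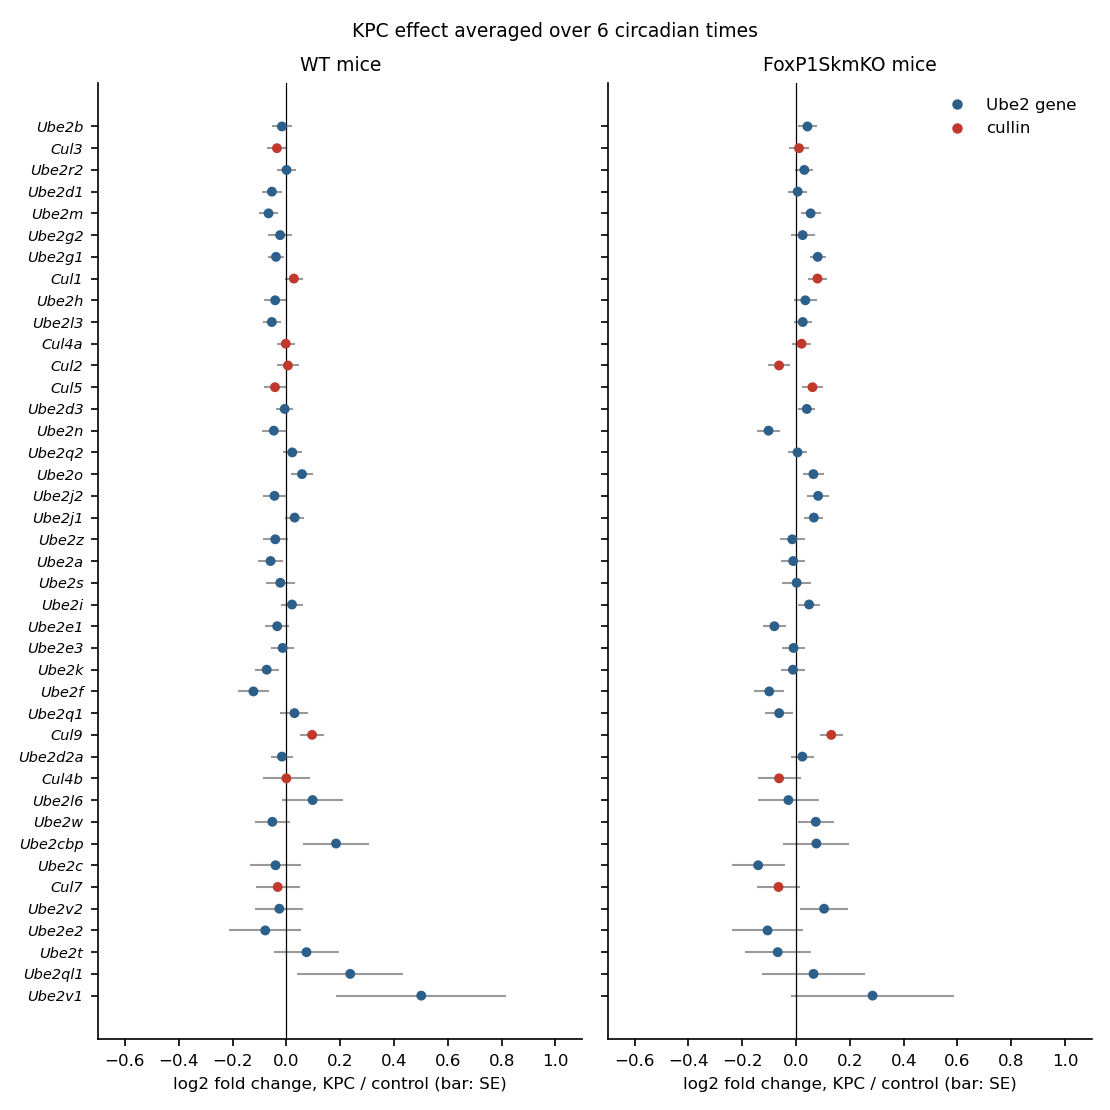
Log2 difference between KPC and control mice averaged over circadian times, with its SE, for each tested member in WT (left) and FoxP1SkmKO mice (right), Ube2 genes in blue and cullins in red. Most points lie within 0.2 of zero, *Ube2v1* with the fewest reads lies farthest out with the longest bars, and none was called in either genotype alone.

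Without tumors, 28 of the 41 members were lower in FoxP1SkmKO than in WT mice, and 9 of these had an unadjusted p under 0.05. Of all 15637 genes, 2683 passed that threshold in either direction. The median log2 difference was -0.03 for members and 0.001 for all genes. No member was called by edgeR (3.44% of all genes were). *Ube2d3* was nearest, at 10.1 to 12.1 FPKM (median 11.2) in WT and 9.64 to 11.2 (median 10.5) in FoxP1SkmKO control mice, a log2 difference of -0.10 (SE 0.03, adjusted p = 0.0654), which DESeq2 called (adjusted p = 0.036). *Ube2b* read 165.5 ± 10.6 and 153.7 ± 10.1 FPKM (-0.11, adjusted p = 0.0891) and *Cul3* 58.3 ± 5.43 and 54.0 ± 3.65 (-0.11, adjusted p = 0.104). All 3 overlapped between genotypes. In KPC mice, no member was called between genotypes (0.320% of all genes were) by edgeR or DESeq2. At an unadjusted p under 0.05 there were 3 members and 1689 of all 15637 genes.

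Time by time, edgeR called members at CT26 in WT mice and at none of the other 11 combinations of time and genotype. At CT26, 3 of 41 members were called, a share near the 7.17% of all genes. All 3 were lower with tumors, while of all genes called 726 were higher and 395 lower. *Ube2m*, the NEDD8 E2 for most cullins, read 45.4 and 39.4 FPKM in the 2 control mice and 33.3 and 30.2 in the 2 KPC mice (log2 difference -0.42, SE 0.09, adjusted p = 0.0030). *Ube2k*, which builds lysine-48 chains on its own, read 6.12 and 5.54 without and 4.43 and 3.93 with tumors (-0.49, SE 0.11, adjusted p = 0.00585). *Ube2a*, the X-linked twin of *Ube2b*, read 8.33 and 9.14 without and 6.75 and 6.93 with tumors (-0.36, SE 0.11, adjusted p = 0.0456). The mice of the 2 groups did not overlap for these genes. Nor did they in the sum of the erythroid markers, at 246.3 to 330.2 FPKM without and 160.6 to 177.4 with tumors, of the fibroblast markers, at 28.6 to 34.4 and 19.0 to 25.4, of the dividing-cell markers, at 0.147 to 0.193 and 0.078 to 0.119, or of the 7 fiber markers, at 52678 to 58027 and 51522 to 51807. The fiber marker *Myh4* alone was itself called, and was higher with tumors (log2 difference 0.36, adjusted p = 0.0434). The part of any of these in the members' values was not tested.

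In FoxP1SkmKO mice at CT26, *Ube2m* read 33.4 and 31.9 FPKM without and 31.4 and 38.8 with tumors (0.10, adjusted p = 0.776), *Ube2k* 4.57 and 4.19 against 4.24 and 4.09 (-0.08, adjusted p = 0.876), and *Ube2a* 7.42 and 8.14 against 6.67 and 5.73 (-0.34, adjusted p = 0.365). The WT control mice of CT26 thus held the highest *Ube2m* values of this time. The difference in tumor effect between genotypes at CT26 was -0.53 (SE 0.13, adjusted p = 0.0548) for *Ube2m*, -0.41 (adjusted p = 0.302) for *Ube2k*, and -0.02 (adjusted p = 0.976) for *Ube2a*. No member was called in it, whereas 54 of all 15637 genes were, 50 with a positive and 4 with a negative difference.

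These calls rested on single libraries and on the spread of all 48: edgeR on these 4 libraries alone called 0 members, and DESeq2 on all 48 did not call *Ube2a* (adjusted p = 0.0549) but called *Ube2o*, which was higher with tumors (0.30, adjusted p = 0.0372). Without WT control CT26 replicate 1 there were 0 members and 89 genes called in place of 1121, without WT KPC CT26 replicate 2 there were 0 and 549, without WT KPC CT26 replicate 1 there were 2 and 482, and without WT control CT26 replicate 2 there were 5 and 1364. The tumor effect at CT26 in WT mice also followed gene length: its median went from -0.19 in the fifth of genes with the shortest exons (up to 2001 bases) through -0.12, -0.03, and 0.08 to 0.20 in the fifth with the longest (from 7194 bases), and in FoxP1SkmKO mice from -0.05 to 0.04. *Ube2m* (2357 bases) and *Ube2a* (2562) are short and *Ube2k* (7892) is long. With the trend on length removed, an alternative chosen after the data were seen, *Ube2k* (-0.64, adjusted p = 0.00172) and *Ube2d3* (-0.45, adjusted p = 0.00656) were called, and *Ube2m* (-0.30, adjusted p = 0.0522) and *Ube2a* (-0.25, adjusted p = 0.271) were not.

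**Figure D5:**
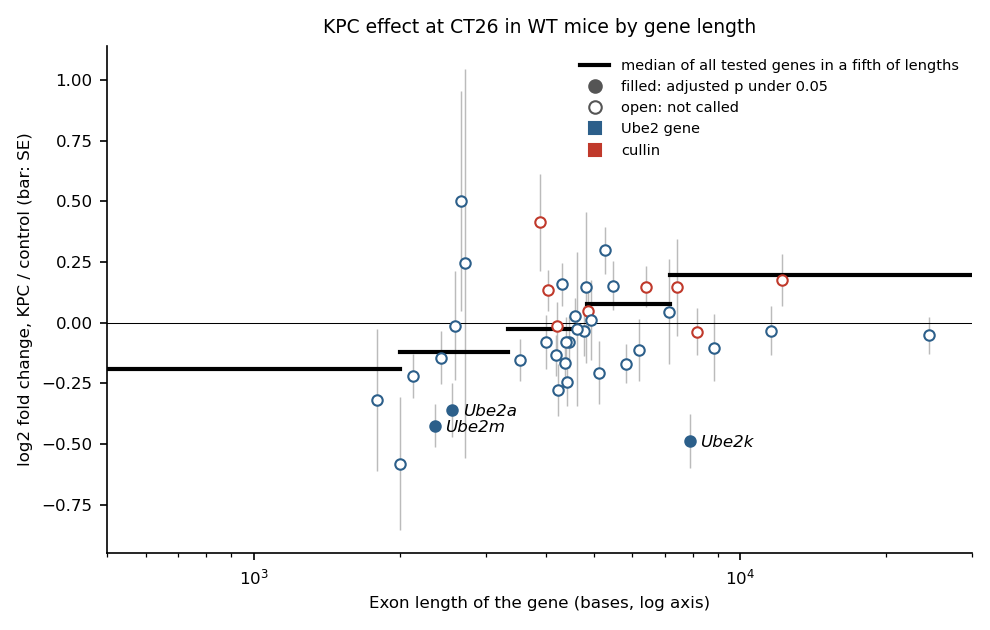
Log2 difference between KPC and control mice at CT26 in WT mice, with its SE, for each tested member against exon length (log axis), Ube2 genes in blue and cullins in red, filled where called. Black lines give the median of all tested genes in 5 length bins of about equal size and climb from -0.19 to 0.20, and *Ube2m*, *Ube2a*, and *Ube2k* are the filled points, below the line of their bin.

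At the 11 other combinations 0 members were called, by edgeR or DESeq2, and 0 to 6 genes each by edgeR (0.00872% of all tests). At an unadjusted p under 0.05 there were 0 to 7 of the 41 members, and 633 to 2158 of all 15637 genes. The 7 members were those of FoxP1SkmKO mice at CT26, where 1392 genes passed. Without the filter on low counts, the calls at these 11 combinations rose to 2668 genes in all, none of them a member.

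The partners of these genes were taken from lists by role. In the tumor comparison over both genotypes, with 5.31% of all genes called, 0 of 19 genes of the NEDD8 cycle, 0 of 10 RING partners and adaptors, 0 of 4 ubiquitin genes, and 0 of 8 E2 genes with other symbols were called. Of 28 cullin substrate receptors 5 were higher in KPC mice and none lower: *Socs3*, a *Cul5* receptor that restrains cytokine signaling, by 0.72 on the log2 scale, *Fbxo32* by 0.39, *Fbxo31* by 0.16, *Klhl21* by 0.13, and *Asb2* by 0.09. Of 12 ligases known from wasting muscle 4 were higher, among them *Fbxo32* and the N-end ligases *Ubr2* (0.14) and *Ubr4* (0.13), whereas *Trim63* was not called (0.10, SE 0.05, adjusted p = 0.228). By genotype, *Trim63* had 0.01 in WT (SE 0.07, adjusted p = 0.98) and 0.20 in FoxP1SkmKO mice (SE 0.07, adjusted p = 0.183, edgeR). The difference between these 2 effects was not called (-0.19, SE 0.10, adjusted p = 0.778). Over both genotypes *Uba7*, the E1 of the interferon-induced modifier ISG15, was higher by 0.26, as 1 of 8 E1 genes and 1 of 5 ISG15 genes, and *Pias2* by 0.11, as 1 of 16 SUMO genes.

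At CT26 in WT mice, where 7.17% of all genes were called, partners moved both ways. Of the 10 RING partners and adaptors 3 were lower, the elongin *Elob* (-0.44), the SCF adaptor *Skp1* (-0.34), and the RING protein gene *Rnf7* (-0.31). Of 19 genes of the NEDD8 cycle 2 were lower, the COP9 signalosome genes *Cops9* (-0.53) and *Cops5* (-0.24), and *Cand2*, which exchanges receptors, was higher (0.32). The E2 *Cdc34* was lower (-0.36), as 1 of 8. Of the 12 wasting ligases 6 were higher, among them *Ubr4* (0.73) and *Ubr2* (0.56), and of 28 receptors 1, *Zyg11b* (0.43). Of 16 SUMO genes 1 was higher and 1 lower, and none of the E1, ubiquitin, or ISG15 genes was called. These values come from the same libraries, and share the trend on gene length, as those of the members at this time.

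For the shared 24 h rhythm, called for 34.9% of all genes, the partner lists ran from 18.8% to 71.4%. It was called for 20 of 28 substrate receptors, 6 of 10 RING partners and adaptors, 7 of 12 wasting ligases, 10 of 19 genes of the NEDD8 cycle, 4 of 8 other E2 genes, 2 of 4 ubiquitin genes, 3 of 8 E1 genes, 1 of 5 ISG15 genes, and 3 of 16 SUMO genes. Peaks between CT30 and CT38 were found for 12 of the 20 receptors, 5 of the 6 RING partners and adaptors, 5 of the 10 NEDD8 genes, 4 of the 4 other E2 genes, and 3 of the 7 wasting ligases. *Asb2*, a muscle receptor of *Cul5*, peaked at CT21.5 with a ratio of 1.93, and the paired adaptors *Eloc* and *Elob* peaked apart, at CT33.6 (ratio 1.14) and CT24.9 (1.16). Among the markers, 5 of 5 macrophage, 3 of 3 fibroblast, 3 of 5 erythroid, 2 of 3 endothelial, 3 of 7 fiber, and 1 of 2 dividing-cell genes were called rhythmic as well, of which 1 fiber gene peaked between CT30 and CT38, and their part in the members' rhythms was not tested.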

How the data were processed

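Reads were aligned to mm39 and counted on genes by the authors. The methods name STAR as aligner and HTSeq as counting tool, and the submitters' processing notes name HISAT2 2.0.5 and DESeq2 1.20.0. The authors deposited raw counts of 4 libraries per table and FPKM, computed from counts, gene length, and library size, for all 48 libraries. The count tables list no value for some genes, and 28541 single reads (0.0035% of counts) were recovered from the FPKM values. The deposited DESeq2 fold changes, p-values, and normalized counts were not used.

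Members and lists were chosen with earlier results of these data known. Counts were tested with edgeR 4.0.16 in R 4.3.3: filterByExpr over 24 groups (15637 genes), TMM scaling, a quasi-likelihood fit to 48 libraries with 1 coefficient per group on trended dispersion, contrasts, and Benjamini-Hochberg adjustment over all genes, with adjusted p under 0.05 as a call. The shared rhythm used cosine and sine terms of 24 h. Rhythm within a group was fitted to FPKM by least squares with an F test (Python 3.11.15, scipy 1.17.1), without a pseudocount, for genes with reads there. Fold changes are of counts, levels are FPKM. Named genes were members called in a contrast, at a single time, or in WT rhythm fits, the 12 members with the lowest rhythm p, the 6 highest and 3 lowest in FPKM, *Ube2b*, and *Cul2*, which the study names. Scripts were tested on simulated data. The p-values of contrasts set a difference against the spread between mice, which the main edgeR fit estimates from all 48 libraries. In the rhythm fits the residual spread also holds departures from a sinusoid. In the shared fit it holds differences in time course between groups as well. Totals were 14480867 to 20787784 counts, with a median of 16602092. Lists of fiber, macrophage, neutrophil, endothelium, adipocyte, fibroblast, erythroid, and dividing-cell markers were read as summed FPKM. Same-numbered replicates of control and KPC mice did not deviate together within a genotype and time (correlations of -0.10 to 0.09 over 12 pairs of groups). Different times and genotypes were not compared, so these values cannot show whether the numbers mark a batch. The main fits used no pairing.

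Alternatives were no filter, DESeq2 1.42.0, limma 3.58.1 on log2(FPKM + 1), edgeR on the 4 libraries of a comparison, CT26 left out, the replicate number as a block, removal of the trend on gene length (added after the data were seen), log2(FPKM + 1) and log2(FPKM + 0.1) and a minimum mean of 1 FPKM for rhythms, an adjusted threshold for rhythms, and each library left out (genes and dispersion trend kept). Some genes of the partner lists are not reported here.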

Additional observations from a re-analysis of the deposited data

How the results depend on the processing

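No result changed sign among those called. Members called for tumors over both genotypes were 2 without a filter on low counts, 0 with CT26 left out, and 0 to 2 with each library left out, against 1, and 0 to 1 in FoxP1SkmKO mice alone when each library was left out. The genotype difference in control mice had 1 member by DESeq2 and 1 with the length trend removed, *Ube2d3* in both, and 0 to 4 with each library left out (4 without FoxP1SkmKO control CT38 replicate 1), against 0. At CT26 in WT mice, and over all times together, edgeR on 4 libraries called 0 members against 3, and leaving out each library gave 0 to 5. Rhythm with an adjusted p under 0.05 in place of p under 0.01 was called for 0 members in WT control, 2 in WT KPC, 2 in FoxP1SkmKO control, and 0 in FoxP1SkmKO KPC mice, and leaving out each library gave 4 to 7 in WT control and 0 to 3 in FoxP1SkmKO KPC mice. The shared rhythm held for 15 members without a filter or with CT26 left out, and for 19 to 24 with each library left out. *Ube2r2* was called in 10 of 48 of these, *Ube2g2* in 39, *Ube2q2* in 41, *Ube2d2a* in 42, and *Cul2* in 47. Called in all 48 and under all 5 other alternatives were *Ube2d1*, *Ube2g1*, *Ube2h*, *Ube2d3*, *Cul1*, *Ube2t*, *Ube2j1*, *Ube2cbp*, *Cul7*, *Ube2ql1*, *Ube2k*, and *Cul4b*. Under 4 of the 5 alternatives *Cul3*, *Ube2n*, *Ube2b*, *Ube2g2*, and *Ube2o* were called. *Cul5*, *Cul2*, *Ube2d2a*, and *Ube2q2* were called under 3, and *Ube2r2* under 2. With the replicate number as a block, which the numbers do not justify as a pairing, the shared rhythm kept a count of 22 members and the rhythm in WT control mice had 6, and no count of calls moved by over 1.5 times. The cause of these changes was not tested.

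Counts of all genes called moved by over 1.5 times for tumors in WT mice (278) to 794 without a filter, 132 with CT26 left out, and 166 by limma, in FoxP1SkmKO mice (67) to 527 without a filter, 161 by DESeq2, and 22 by limma, for the genotype in KPC mice (50) to 470, 116, and 28 likewise, for the genotype in control mice (538) to 933 without a filter, for the difference in tumor effect (0) to 104 without a filter, and at CT26 in WT mice (1121) to 403 with the length trend removed and 345 with edgeR on 4 libraries. Over the 12 comparisons by time together (1136) the count was 3798 without a filter, 421 with the length trend removed, and 561 with edgeR on 4 libraries. Genes rhythmic within a group fell with adjustment from 1339 to 150, 1155 to 130, 1169 to 119, and 747 to 33. Each time and condition rests on 2 mice per genotype.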
